A study of Homo sapiens with 18 samples.

Results

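The 8 genes CGA, CBLN2, SYT13, NELL2, TMTC1, SLC37A2, CILP2 and SYNPO had a higher FPKM in both ZR751shMLL3 libraries than in both ZR751shLucif libraries, and were chosen by that pattern in these FPKM values. They are 8 of the 23500 entries in the RNA-seq table, where an entry is a gene given by its RefSeq transcripts and FPKM is the number of sequenced fragments scaled for transcript length and library size. ZR751 (ZR75-1) is an established estrogen receptor positive breast cancer cell line. By stable lentiviral transduction, ZR751shMLL3 cells carry 1 hairpin that targets MLL3 and ZR751shLucif cells a control hairpin that targets luciferase, and both lines were sorted for GFP and grown without further treatment. RNA-seq was made from 2 libraries of each line, and chromatin was immunoprecipitated for H3K4me1, ERα and SP1 in 2 libraries of each line. Both the RNA and the ChIP libraries are described as biological replicates. The cells were at early passages, and the passage of each library is not given in the sources used here. With 1 hairpin per line, effects of MLL3 loss, of that hairpin and of the transduced line cannot be told apart.

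MLL3, encoded by KMT2C, is a methyltransferase that places the monomethyl mark on histone H3 lysine 4 (H3K4me1), which marks enhancers. ERα, encoded by ESR1, is the estrogen-activated transcription factor of luminal breast cells, and SP1 is a transcription factor that binds GC-rich promoters. The 8 genes have no pathway in common. CGA, CBLN2, NELL2 and CILP2 encode secreted proteins, SYT13, TMTC1 and SLC37A2 proteins of intracellular membranes, and SYNPO a protein of the actin cytoskeleton. Several of them are best known from pituitary, placenta, brain, cartilage or kidney rather than from breast epithelium.

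The DNA upstream of 3 of the genes is shown because it holds the motifs counted below and no annotated exon. Each run is the 250 bases before the start of the canonical transcript, 5′ to 3′ on the strand of the gene, in lower case with motif matches in capitals. The sequences are those of RefSeq (GRCh38.p14) and matched GRCh37 exactly at chr6:87804825-87805074 for CGA, chr12:29936876-29937125 for TMTC1 (both on the minus strand) and chr5:150019972-150020221 for SYNPO (plus strand). In CGA the capitals are the GATA element AGATAA, the cAMP response element TGACGTCA at 2 places and the TATA box TATAAA, and in TMTC1 and SYNPO they are the GC box GGGCGG.
CGA: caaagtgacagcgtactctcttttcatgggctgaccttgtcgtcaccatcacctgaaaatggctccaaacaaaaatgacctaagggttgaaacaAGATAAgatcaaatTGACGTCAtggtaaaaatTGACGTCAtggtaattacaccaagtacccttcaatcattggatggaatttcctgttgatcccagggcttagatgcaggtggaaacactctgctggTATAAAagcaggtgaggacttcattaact
TMTC1: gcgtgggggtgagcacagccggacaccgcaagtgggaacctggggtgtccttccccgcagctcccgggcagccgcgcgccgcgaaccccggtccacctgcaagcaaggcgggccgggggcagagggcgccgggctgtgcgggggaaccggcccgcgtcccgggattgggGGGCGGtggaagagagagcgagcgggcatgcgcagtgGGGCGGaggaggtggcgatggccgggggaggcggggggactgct
SYNPO: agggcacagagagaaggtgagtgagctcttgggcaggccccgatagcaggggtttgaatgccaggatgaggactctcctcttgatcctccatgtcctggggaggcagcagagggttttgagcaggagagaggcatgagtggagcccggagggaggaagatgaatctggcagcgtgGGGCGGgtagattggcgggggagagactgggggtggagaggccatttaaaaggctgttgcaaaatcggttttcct

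MLL3 itself was measured first. Here and below, 2 values for ZR751shLucif (replicates 1 and 2) are set against 2 for ZR751shMLL3 (replicates 1 and 2). KMT2C was at 2.34 and 6.77 FPKM against 1.07 and 2.69 FPKM. The values of the cell lines overlapped, since ZR751shLucif replicate 1 was below ZR751shMLL3 replicate 2. The difference of mean log2(FPKM + 0.5), the scale of every difference given here, was −1.02 (SE 0.544, n = 2 per line, adjusted p = 0.629 in limma with Benjamini-Hochberg adjustment). It was −0.35 without ZR751shLucif replicate 2, −0.51 without ZR751shMLL3 replicate 1, −1.54 without ZR751shMLL3 replicate 2 and −1.70 without ZR751shLucif replicate 1, so its size rested on single libraries. The paper also measured MLL3 by qPCR in biological replicates and reports a knockdown, which was not analysed here. All 8 luminal markers on a list of GATA3, KRT8, ESR1 and others passed the filter of a mean log2 value above 1, with ESR1 at 11.2 and 14.2 FPKM against 12.1 and 10.8 FPKM, where the lines overlapped. FOXA1, at 173 and 102 FPKM against 76.8 and 93.7 FPKM, and XBP1, at 1302 and 1507 FPKM against 1207 and 1112 FPKM, were lower in both ZR751shMLL3 libraries, and none of the 8 was higher in both. Of all genes that passed the filter, 25.3% were lower in both and 17.6% higher in both. The 6 basal and mesenchymal markers summed to between 0.355 and 0.909 FPKM in each library. ZR751shLucif replicate 1 stood apart from the other libraries, with Pearson correlations of 0.900 to 0.907 across genes against 0.947 to 0.969 among the other 3 (genes are not independent replicates). The fragments behind single genes are not known from FPKM.

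Among the secreted proteins, CGA had the largest difference. CGA encodes the alpha subunit that the gonadotropins and thyrotropin share, which pairs with a hormone-specific beta subunit. It was at 6.17 and 5.53 FPKM against 79.4 and 37.6 FPKM. The means were 5.85 ± 0.452 and 58.5 ± 29.6 FPKM (SD, n = 2), a 10.0-fold ratio and a difference of 3.12. The control libraries lay close together, and the ZR751shMLL3 libraries differed from each other more than those of any gene here but SYNPO, by 1.07 on the log2 scale.

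CBLN2, a secreted cerebellin that links neurexins to delta glutamate receptors at synapses, had 4.65 and 2.85 FPKM against 37.0 and 34.2 FPKM. The ZR751shMLL3 libraries were almost level, 0.11 apart on the log2 scale. The lowest ZR751shMLL3 value was 7.35 times the highest control value, the widest such gap among the 8 genes, and on the log2 scale the widest of all 11134 genes that passed the filter. The ratio of means was 9.49 and the difference 3.12.

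NELL2, a secreted glycoprotein and ROBO3 ligand in axon guidance, was at 5.86 and 10.7 FPKM against 40.5 and 25.4 FPKM. It had the smallest gap of the 8, with the lowest ZR751shMLL3 value at 2.38 times the highest control value, and the smallest difference, 1.95. CILP2, a matrix protein related to the cartilage intermediate layer protein, was at 2.42 and 1.84 FPKM against 9.35 and 11.0 FPKM, a 4.78-fold ratio of means and a difference of 2.03. Within each line the CILP2 libraries were at most 0.32 apart on the log2 scale.

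Of the membrane proteins, TMTC1 was the most abundant in the control cells. TMTC1 is an O-mannosyltransferase of the endoplasmic reticulum that acts on cadherins. It was at 11.7 and 9.65 FPKM against 39.8 and 62.4 FPKM, a 4.78-fold ratio of means and a difference of 2.18. SYT13, a synaptotagmin that does not bind calcium, was at 1.58 and 1.33 FPKM against 9.42 and 14.9 FPKM, an 8.36-fold ratio and a difference of 2.66. SLC37A2, a sugar-phosphate and phosphate exchanger, was the least abundant of the 8. Its values were 0.439 and 0.495 FPKM against 3.21 and 4.43 FPKM, an 8.18-fold ratio and a difference of 2.15.

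SYNPO encodes synaptopodin, an actin-binding protein of kidney podocytes and dendritic spines. Its values were 0.776 and 1.03 FPKM against 4.00 and 9.05 FPKM, a 7.22-fold ratio and a difference of 2.23. Its ZR751shMLL3 libraries were 1.09 apart on the log2 scale, and both were above both controls. No replicate of either line was highest throughout. Replicate 1 was the higher ZR751shMLL3 library for 3 of the genes and replicate 2 for 5, and in ZR751shLucif these counts were 5 and 3.

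**Figure D1:**
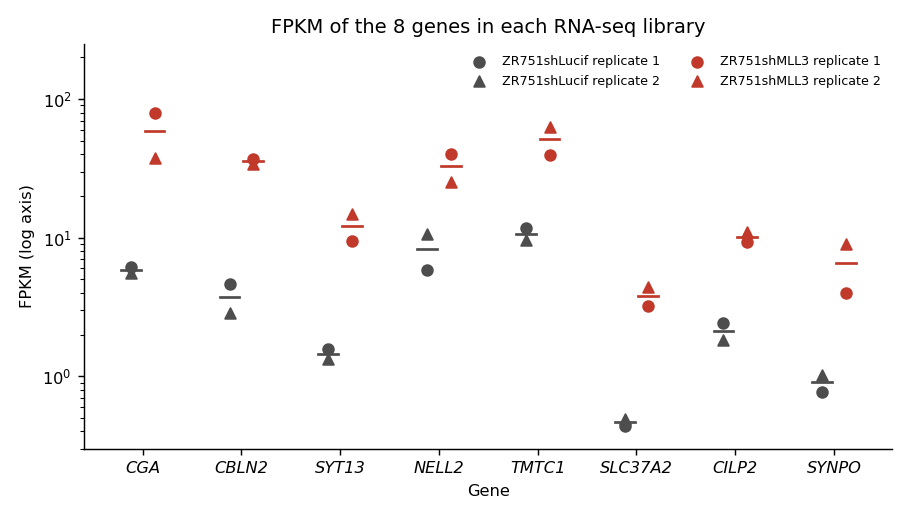
FPKM (log axis) of the 8 genes in the 4 RNA-seq libraries, with circles for replicate 1, triangles for replicate 2 and a bar at the mean of each line (n = 2). Every ZR751shMLL3 point lies above both ZR751shLucif points of its gene, by 2.38 times at NELL2 to 7.35 times at CBLN2 between the nearest points.

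These values chose the genes, so they carry no test here. Over the whole table, 1959 of the 11134 genes that passed the filter (17.6%) were higher in both ZR751shMLL3 libraries and 2813 (25.3%) were lower in both, so the rule by itself is met often. A difference of 1 or more together with no overlap was met by 187 genes (1.68%), and one of 2 or more by 26 (0.234%). Counting every gene with no overlap and a difference at least that of NELL2 gave 30, so 22 other genes meet what the 8 meet. By difference the 8 ranked between 14 (CGA) and 69 (NELL2) of the 11134, and by gap between 1 (CBLN2) and 38 (NELL2), with CGA, SYT13 and SLC37A2 at 2, 3 and 4. Their median difference was 2.20, against −0.10 for all genes that passed and 0.48 for the genes higher in both. Of the genes with a difference at least that of NELL2 that missed the rule, MIR4313, MIR4737 and SNORA37 came closest by gap. These small RNAs had differences of 4.02, 5.45 and 3.44, were listed at 0 in 1 to 3 libraries, and tied or overlapped between the lines.

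All 8 passed the filter, 3 of them (SYT13, SLC37A2 and SYNPO) through their ZR751shMLL3 values only. limma called 0 genes higher (0.0%) and 1 gene lower (0.00898%) at an adjusted p of 0.05, while 409 genes were higher and 480 lower at an unadjusted p under 0.05. The paper used another model, with surrogate variables removed first, and reports far more genes changed in each direction at q under 0.05. In ZR751shLucif the means of all 8 lay below the median gene that passed the filter, 13.6 FPKM. In ZR751shMLL3, 4 of them (CGA, CBLN2, NELL2 and TMTC1) lay above the median, which was 12.6 FPKM.

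Differences between the lines followed the GC content of the transcript, with a Spearman correlation of 0.538 across the 10536 genes of known GC content (across genes, which share the 4 libraries). The genes higher in both had a median GC content of 58.5% against 48.9% for all. The 8 genes did not share this shift, with a median of 48.4% and a range from 41.6% at TMTC1 to 66.8% at CILP2. When the trend on GC content was removed from each library, the differences of CGA, CBLN2, SYT13, NELL2 and TMTC1 became 3.30, 3.16, 2.73, 2.08 and 2.40. Those of the 3 genes above 50% GC, SLC37A2, CILP2 and SYNPO, became 1.93, 1.60 and 1.92. The part of GC content in the values of single genes was not tested.

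**Figure D2:**
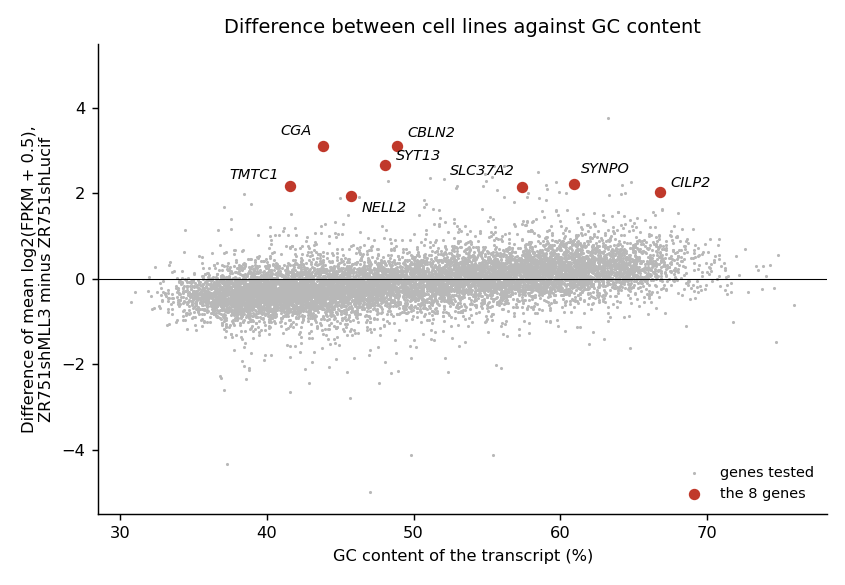
Difference of mean log2(FPKM + 0.5), ZR751shMLL3 minus ZR751shLucif, against transcript GC content for the 10536 genes that passed the filter and have a known GC content (grey), with the 8 genes in red. The grey points slope upward with GC content, and the 8 genes lie among the higher points, at differences of 1.95 to 3.12, from 41.6% to 66.8% GC.

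Relatives and partners of each gene, 54 in the table, were read beside it. Of these, 17 passed the filter, 2 were higher in both ZR751shMLL3 libraries (SYT1 and SYT12) and 3 were lower in both (TMTC3, TMTC4 and CD2AP), and the median difference of the 17 was −0.12. The shares over all genes that passed were 17.6% higher and 25.3% lower in both. The hormone genes around CGA were nearly silent. None of the 12 other glycoprotein hormone and receptor genes passed the filter, and 9 of them, among them FSHB, TSHB, CGB3, CGB5, CGB8 and the receptors LHCGR, FSHR and TSHR, were listed at 0 in all 4 libraries. LHB, the beta subunit of luteinizing hormone, was at 1.01 and 0.169 FPKM against 1.03 and 0.515 FPKM, so the lines overlapped. CGB7, a beta subunit gene of chorionic gonadotropin with near-identical copies, was at 0.176 FPKM and listed at 0 in the control libraries and at 0.464 and 0.409 FPKM after knockdown.

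None of the other cerebellins and their partners passed the filter. CBLN1 was at 1.74 and 0.562 FPKM against 0.813 and 0.732 FPKM, CBLN3 at 0.612 and 0.413 FPKM against 0.673 and 0.614 FPKM, and CBLN4 was listed at 0 in all libraries. The synaptotagmins include the 2 relatives with higher values. SYT1, a calcium sensor of vesicle release, was at 1.16 and 2.04 FPKM against 3.48 and 4.44 FPKM, and SYT12 was at 31.9 and 33.9 FPKM against 49.7 and 84.2 FPKM. Their differences, 1.11 and 0.96, were under that of SYT13. SYT5, SYT7, SYT8 and SYT17 also passed the filter and overlapped between the lines.

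Of the TMTC enzymes, TMTC1 alone was higher in ZR751shMLL3. TMTC3 was at 7.08 and 7.56 FPKM against 3.52 and 6.17 FPKM, a difference of −0.59, and TMTC4 differed by −0.24 without overlap, with the same signs after the libraries were scaled to the same median. TMTC2 overlapped. The other SLC37 transporters, SLC37A1, SLC37A3 and SLC37A4, were all more abundant than SLC37A2 in every library on the per-length scale of FPKM, and each overlapped between the lines. ROBO1 was at 4.18 and 4.93 FPKM against 4.76 and 6.44 FPKM, and ROBO3, the receptor of NELL2, was at 0.957 and 0.454 FPKM against 0.651 and 0.621 FPKM. CILP, the relative of CILP2, was listed at 0 in both controls and at 0.0467 and 0.0160 FPKM in ZR751shMLL3. The actin partners ACTN1, ACTN4 and MAGI1 overlapped.

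**Figure D3:**
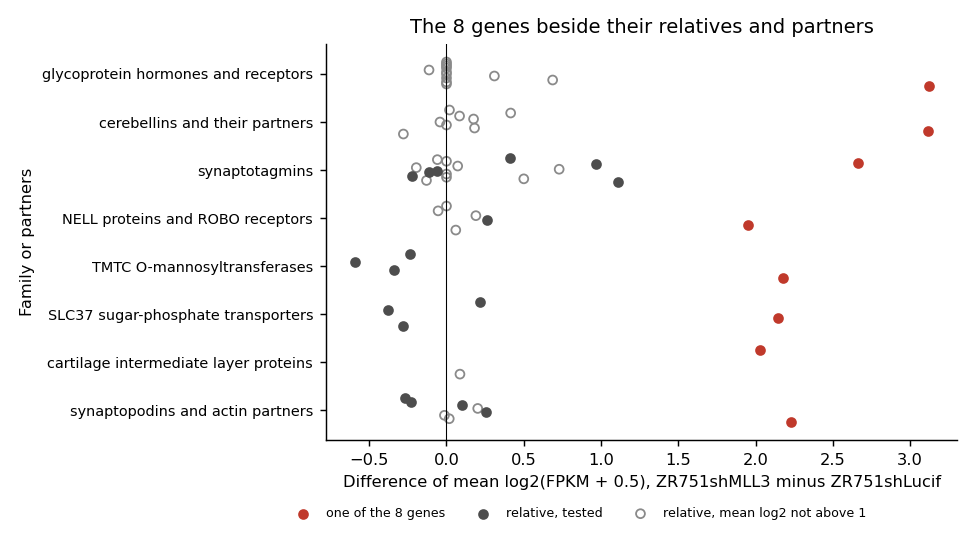
Difference of mean log2(FPKM + 0.5) between the lines for the 8 genes (red), their relatives and partners that passed the filter (dark) and those that did not (open), by family. The red points lie between 1.95 and 3.12, and no relative exceeds the 1.11 of SYT1.

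Markers of neurons, placenta, pituitary and neuroendocrine cells were mostly at low levels, and cartilage and kidney markers were not analysed here. Summed over the list, neuronal markers were between 0.0887 and 0.338 FPKM per library, and placental markers between 0.173 and 0.789 FPKM. Of the 8 pituitary markers, PITX1 alone passed the filter, at 144 and 86.8 FPKM against 110 and 106 FPKM, and 6, POU1F1 among them, were listed at 0 in all libraries. Of the 8 neuroendocrine markers SYP, a synaptic vesicle protein, alone passed, at 1.77 and 3.30 FPKM against 6.12 and 7.98 FPKM. CHGB and NEUROD1 were listed at 0 in all libraries. The neuroendocrine list summed to 2.51 and 4.24 FPKM against 6.44 and 8.19 FPKM, most of it SYP, and its part in the values of the 8 genes was not tested. In bulk RNA, more cells that express a gene and more RNA per cell cannot be told apart.

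The 5 genes closest to the median profile of the 8 (Euclidean distance over the 4 libraries, each gene relative to its control mean on the log2 scale) were CA11, IRF9, PGM5, ARID5A and GPRC5A, at distances of 0.347 to 0.786. CA11 was at 3.28 and 2.02 FPKM against 11.4 and 16.6 FPKM. Among the 8 themselves TMTC1 was nearest to the median profile, at 0.268, and CGA farthest, at 1.55.

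Neighbours within 100 kb were few. CBLN2, SYT13, NELL2 and TMTC1 had no other gene of the table with a start in that window. ZNF292 beside CGA was at 1.66 and 3.82 FPKM against 2.43 and 3.75 FPKM. TMEM218 beside SLC37A2 and NDUFA13 beside CILP2 also overlapped between the lines. TSSK6, 22717 bases upstream of CILP2, was higher in both ZR751shMLL3 libraries, at 1.17 and 2.03 FPKM against 3.94 and 2.70 FPKM, and RBM22 near SYNPO was lower in both. Of 8 neighbours 5 passed the filter, with a median difference of −0.01.

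The rule that chose the genes used FPKM and no peaks, though earlier results of these data were known when they were chosen. The authors' peak lists hold up to 300000 peaks per library and were limited by rank, so the 20000 peaks with the highest signal were taken from each. With equal numbers from each library, a count or rank is relative to the other peaks of its list. It does not measure the amount of mark or binding, and the paper reports a broad loss of H3K4me1 after knockdown. A peak was counted for a gene when its summit lay within 100 kb of the start of the canonical transcript on GRCh37. These starts were at chr6:87804824 for CGA, chr18:70211577 for CBLN2, chr11:45307892 for SYT13, chr12:45270098 for NELL2 and chr12:29936875 for TMTC1, all on the minus strand, and at chr11:124933201 for SLC37A2, chr19:19649074 for CILP2 and chr5:150020222 for SYNPO on the plus strand. Replicates shared few of these peaks. Between replicates of a line 24.3% to 41.0% of the H3K4me1 peaks overlapped by at least 1 bp, against 2.51% to 3.96% for ERα and 1.89% to 5.95% for SP1. Between lines the shares were 23.0% to 34.0%, 1.38% to 7.54% and 1.61% to 4.84%.

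H3K4me1 peaks around the 8 genes summed to 10 and 7 in ZR751shLucif replicates 1 and 2 and to 16 and 7 in ZR751shMLL3 replicates 1 and 2. The means differed by 3.0 peaks (p = 1.0, exact permutation test, two-sided), and 2 against 2 libraries cannot give a p below 0.3333. Of the 8 genes, 1 (TMTC1) had more H3K4me1 peaks in both ZR751shMLL3 libraries than in both controls, where 7.26% of 20032 genes did, and 1 (CILP2) had fewer, where 7.03% did. TMTC1 had 1 and 0 peaks in ZR751shLucif and 7 and 4 in ZR751shMLL3. A margin of 3 peaks or more, as at TMTC1, was found at 80 of the 20032 genes (0.399%). With 50000 peaks per library the TMTC1 counts were 9 and 3 against 12 and 10, still without overlap, and with 5000 peaks they were 0 and 0 against 2 and 0. Listed peaks of a library can overlap each other, and with overlapping peaks joined TMTC1 had 1 and 0 places against 6 and 4, a margin of 3 or more being found at 0.369% of genes. By the authors' FDR of 0.01 the lists are of very unequal length, from 28599 peaks in ZR751shMLL3 replicate 1 to 192201 in ZR751shLucif replicate 2, and the summed counts then turned to 64 and 107 against 19 and 80.

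At TMTC1 the H3K4me1 peaks lay on both sides of the start. Of the 7 in ZR751shMLL3 replicate 1, 4 were upstream, between 3576 and 13891 bases, and 3 within the gene. Of the 4 in replicate 2, 2 were upstream and 2 in introns more than 70 kb into the gene. Of the intronic peaks of ZR751shMLL3 replicate 2, that at 76875 bases into TMTC1 overlapped the only control peak, so that place was shared between the lines. The replicates met at 1 place, chr12:29950478-29951646, which lies in no annotated gene, with summits 13891 and 14352 bases upstream of TMTC1. The peak ranked 14273 and 8064 in ZR751shMLL3 and 28559 and 33181 in ZR751shLucif, so it was listed in all 4 libraries and ranked higher in the ZR751shMLL3 libraries. SLC37A2 had 1 such place, chr11:124845034-124845990 within CCDC15, 87.5 to 87.7 kb upstream, with ranks of 17656 and 15038 in ZR751shMLL3 and 141279 and 112115 in ZR751shLucif. The 300 bases at the centre of each place are shown on the strand of TMTC1 (minus, chr12:29950847-29951146) and of SLC37A2 (plus, chr11:124845429-124845728). Neither holds a match to any of the 7 motifs named below, so no letter is in capitals.
TMTC1 upstream peak: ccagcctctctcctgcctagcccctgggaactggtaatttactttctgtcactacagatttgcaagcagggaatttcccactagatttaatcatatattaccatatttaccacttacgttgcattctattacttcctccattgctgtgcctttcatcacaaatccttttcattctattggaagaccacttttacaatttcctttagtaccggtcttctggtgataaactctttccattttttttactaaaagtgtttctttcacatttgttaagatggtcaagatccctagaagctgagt
SLC37A2 upstream peak: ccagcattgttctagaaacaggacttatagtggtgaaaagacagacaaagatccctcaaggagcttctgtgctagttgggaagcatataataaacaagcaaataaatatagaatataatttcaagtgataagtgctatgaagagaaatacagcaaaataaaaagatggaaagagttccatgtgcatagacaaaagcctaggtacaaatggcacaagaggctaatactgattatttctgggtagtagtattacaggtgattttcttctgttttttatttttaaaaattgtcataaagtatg

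**Figure D4:**
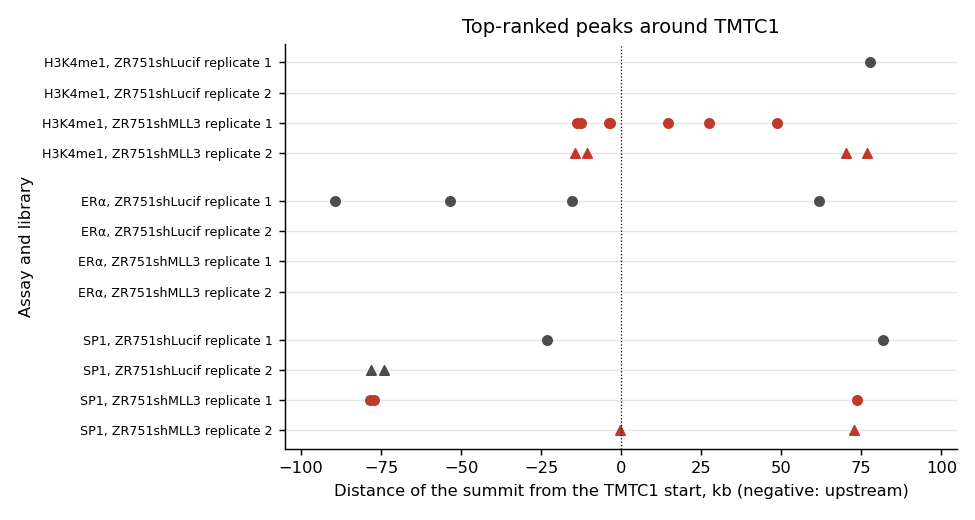
Summits of the 20000 top-ranked peaks of each library around the TMTC1 start, by distance in kb, with ZR751shLucif in grey and ZR751shMLL3 in red. H3K4me1 has 1 and 0 summits in ZR751shLucif and 7 and 4 in ZR751shMLL3, while ERα has 4 in ZR751shLucif replicate 1 and 0 in the other libraries.

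Of the other genes, CILP2 alone had H3K4me1 counts without overlap at 20000 peaks. CILP2 had 1 and 2 peaks in ZR751shLucif and 0 and 0 in ZR751shMLL3, and the peak that both controls shared lay 91.4 to 91.6 kb upstream in GATAD2A. The controls also met at CBLN2, at chr18:70300827-70301839, with ranks of 18850 and 13842. That place ranked 34261 in ZR751shMLL3 replicate 1 and was not listed in replicate 2. So the H3K4me1 replicates met at 2 places in ZR751shLucif and at 2 in ZR751shMLL3. With 50000 peaks per library the CILP2 counts overlapped, at 1 and 4 against 1 and 1, while CBLN2, at 5 and 2 against 8 and 8, and SYT13, at 0 and 0 against 1 and 1, joined TMTC1 with more. That made 3 of 8 genes with more and 0 with fewer, where 12.2% and 11.7% of all genes did, and with 5000 peaks no member was without overlap. CBLN2 had 4 and 1 against 3 and 1 peaks, and NELL2 3 and 0 against 2 and 1, where the 3 overlap each other and make 1 place. SYNPO had 0 and 3 against 0 and 0. At NELL2 the strongest peak of ZR751shLucif replicate 1, 44423 bases upstream with rank 4203, overlapped the strongest of ZR751shMLL3 replicate 1, with rank 6522. Both summits lie within the annotated span of NELL2, which reaches chr12:45315631, upstream of the canonical start used here. CGA had 0 and 1 against 2 and 0, all of them within ZNF292. SYT13 had 0 in all 4 libraries with 20000 peaks.

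ERα peaks summed to 12 and 3 in ZR751shLucif and to 4 and 7 in ZR751shMLL3, a difference of −2.0 peaks (p = 1.0, exact permutation test, two-sided). NELL2 had 1 and 0 ERα peaks against 2 and 2, and CGA had 1 and 1 against 0 and 0, so 1 of 8 genes had more and 1 had fewer without overlap, where 5.54% and 6.96% of all genes did. With 50000 peaks per library both overlapped, NELL2 at 2 and 3 against 3 and 6 and CGA at 1 and 2 against 1 and 1. SYT13, at 0 and 0 against 3 and 2, and SLC37A2, at 2 and 0 against 3 and 4, then had more, 2 of 8 genes where 7.74% of all genes did, and with 5000 peaks no member was without overlap. No ERα peak near the 8 genes was among the 20000 top-ranked in both replicates of a line, though some overlapped lower-ranked peaks of the other replicate. The highest-ranked was at NELL2 in ZR751shMLL3 replicate 2, rank 620, within the gene and 94610 bases past its start, and no other library had an overlapping peak but ZR751shLucif replicate 2, at rank 164463. CBLN2 had 2 and 2 peaks against 2 and 4, and its best rank was 1234, in ZR751shMLL3 replicate 2. TMTC1 had 4 peaks in ZR751shLucif replicate 1 and 0 elsewhere. SYT13 and CILP2 had 0 in each library with 20000 peaks.

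The ERα lists differ in make. At the FDR used above for H3K4me1 they held 98579 and 3797 peaks in ZR751shLucif and 764 and 31912 in ZR751shMLL3. All peaks counted near the 8 genes in ZR751shMLL3 replicate 1, those of NELL2 included, failed that FDR. The ERα counts therefore compare ranks within lists and do not show binding gained or lost. In ZR751shLucif replicate 1, 4964 of the 20000 peaks were tied in signal with the last of them, and leaving out the tied peaks gave sums of 9 and 3 against 4 and 7. By its name, the library of ZR751shLucif replicate 2 belongs to the series of the SP1 libraries and the other 3 ERα libraries to another. The part of the library series in the counts was not tested.

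SP1 peaks summed to 5 and 13 in ZR751shLucif and to 11 and 11 in ZR751shMLL3, a difference of 2.0 peaks (p = 1.0, exact permutation test, two-sided). CGA had 0 and 0 SP1 peaks against 1 and 1, at separate places 30985 bases past its start and 60297 bases upstream, and SYT13 had 1 and 1 against 0 and 0. So 1 of 8 genes had more and 1 had fewer, where 14.0% and 4.58% of all genes did. With 50000 peaks per library both overlapped, CGA at 1 and 2 against 5 and 1 and SYT13 at 2 and 2 against 2 and 3. NELL2, at 4 and 3 against 7 and 6, and TMTC1, at 3 and 5 against 10 and 8, then had more and SLC37A2, at 3 and 4 against 1 and 2, had fewer, where 15.7% and 5.94% of all genes did. With 5000 peaks SYT13 and TMTC1 had fewer, each at 1 and 1 against 0 and 0, where 2.0% of all genes did. So the genes without overlap changed with the number of peaks in each assay, and TMTC1 in H3K4me1 was the only one with more at both 20000 and 50000. No SP1 peak near the 8 was among the 20000 top-ranked in both replicates of a line either. At the FDR used above for H3K4me1, the whole SP1 lists held 0 and 0 peaks in ZR751shLucif and 204178 and 12065 in ZR751shMLL3. All control SP1 peaks counted here, those of SYT13 included, therefore failed that FDR. The SP1 counts compare ranks within lists and do not show binding gained or lost.

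ZR751shMLL3 replicate 2 stood apart from the other SP1 libraries. It had a top-ranked SP1 peak within 1 kb of the start of 30.9% of all genes, against 3.15% to 3.97% in the other 3, and on average 2.93 peaks within 100 kb of a gene against 1.20 to 1.26. In that library 3 of the 8 genes had a peak at their start. They were TMTC1, with rank 8300 and its summit 367 bases upstream, CILP2, with rank 7282 and its summit 193 bases into the gene, and NELL2, with rank 17391 and its summit 479 bases upstream. No other library, in any of the 3 assays, had a top-ranked peak within 1 kb of the canonical start of any of the 8. Other annotated starts were not counted. Without that library the summed SP1 difference was again 2.0 peaks.

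**Figure D5:**
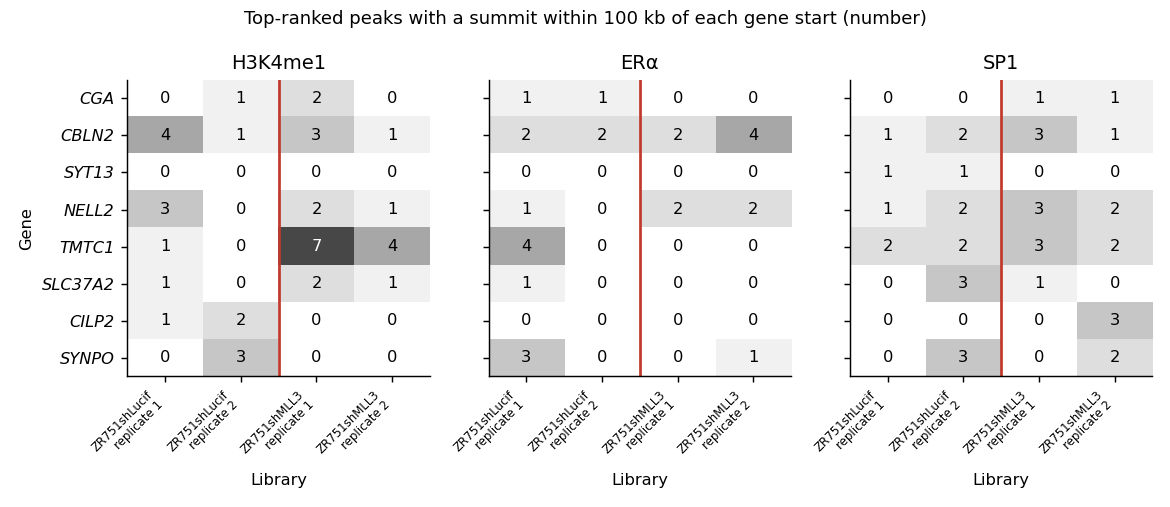
Number of the 20000 top-ranked H3K4me1, ERα and SP1 peaks with a summit within 100 kb of the start of each gene, in the 2 ZR751shLucif libraries (left of the red line) and the 2 ZR751shMLL3 libraries (right). TMTC1 has 7 and 4 H3K4me1 peaks in ZR751shMLL3 against 1 and 0, and most other rows overlap between the lines.

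The upstream sequences were searched on both strands for 7 motifs, the GC box GGGCGG, the cAMP response element TGACGTCA, the estrogen response element GGTCANNNTGACC, the AP-1 element TGANTCA, the GATA element AGATAA, the forkhead element TGTTTAC and the TATA box TATAAA. The RefSeq table had an entry for CGA, CBLN2, TMTC1, CILP2 and SYNPO, and none was used for SYT13, NELL2 and SLC37A2. CGA held the cAMP response element at 142 to 135 and at 124 to 117 bases before its start, a motif found in 1.65% of all 35116 entries, with 2 or more copies in 19 of them (0.0541%). It also held a TATA box at 29 to 24 bases (10.7% of entries) and a GATA element at 156 to 151 bases (9.17%). The GC box, present in 42.6% of entries, was found 2 times in the sequence shown for TMTC1, 2 times in CILP2 and 1 time in that shown for SYNPO. CBLN2 held none of the 7 motifs. No upstream sequence of the 5 held an estrogen response element, which 14 of the 35116 entries did. These are matches of letters and not measured binding.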

How the data were processed

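RNA-seq was measured in 4 libraries and ChIP-seq for 3 antibodies in 12 libraries, 2 per cell line and assay. The authors made the FPKM values with TopHat2 2.0.13, Cufflinks 2.2.1 and Cuffnorm 2.2.1 on hg19, per RefSeq gene, as the submitters' processing notes list them. The authors aligned ChIP-seq reads with BWA 0.7.5a-r405, filtered them with Picard 1.126, and called peaks with SPP in each library against 1 input library per line. The deposited lists give the SPP signal of each peak, on a scale of its own in each list, and the −log10 of the FDR. Inputs were not analysed here. The lists hold up to 300000 peaks and are limited by rank. By the name of its list, the reads of SP1 ZR751shMLL3 replicate 1 were filtered differently from the others. FPKM and peak lists hold no counts, so the depth of a value is unknown.

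FPKM were read as log2(FPKM + 0.5) on genes with a mean above 1 and fitted with limma 3.58.1 in R 4.3.3, with Benjamini-Hochberg adjustment. The surrogate variables of the study's own model were not used. With 2 libraries per line, 1 such variable would leave 1 residual degree of freedom, as the replicate block run as an alternative also does. Genes were named by the 8 members, their families, neighbours within 100 kb and the 5 nearest profiles. The members and lists were chosen with earlier results of these data known. A marker on the neuroendocrine list is not reported here. Positions and GC content came from GENCODE on GRCh37, which has the coordinates of hg19, and GC content was known for 94.6% of genes tested. Peaks were ranked by signal with Python 3.11.15 and pandas 2.3.3, and sequences were read with samtools. Summed peak counts were compared with two-sided exact permutation tests over the 4 libraries. p-values measure the spread between these libraries only. Fits and counts were tested on simulated data. Alternatives were other pseudocounts, filters, scalings, numbers of peaks and windows, a GC correction, a replicate block, and each library left out.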

Additional observations from a re-analysis of the deposited data

How the results depend on the processing

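The median difference of the 8 genes stayed between 2.01 and 2.70 under every alternative run. It was 2.70 with a pseudocount of 0.1 and 2.65 with a filter at a mean log2 value of 3, which 4 of the 8 pass, and 2.11 to 2.54 with each library left out. The 8 were chosen for values without overlap, so another pseudocount or filter or a library left out could not turn its sign. The count of genes higher in both ZR751shMLL3 libraries was 1959, and became 3019 with no filter, 1287 with the filter at 3 and 2730 to 4603 with a library left out, where fewer values have to agree. limma called 0 genes higher, and 0 to 353 with a library left out, the 353 without ZR751shLucif replicate 2 (all 8 genes among them), a fit in which the lone control is taken to vary like the ZR751shMLL3 libraries. With the replicate number as a block limma called 14 of the 11134 genes higher and 19 lower. The 8 genes were chosen on these values, so calls of the 8 carry no test. Across genes, how far each replicate lay from the mean of its line was nearly unrelated between the lines, with a correlation of 0.0374. Whether the replicate numbers mark a real pairing was not tested, since 2 libraries per line cannot decide it.

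The summed peak differences had no stable sign. H3K4me1 changed from 3.0 to −36.0 peaks at the authors' FDR of 0.01, and ranged from −1.5 (without ZR751shMLL3 replicate 1) to 7.5 with a library left out. ERα changed from −2.0 to 4.5 with 50000 peaks per library and 0.0 with 5000, and ranged from −6.5 to 2.5 (without ZR751shLucif replicate 1). SP1 changed from 2.0 to −2.5 with 5000 peaks and −3.5 with the window extended over the whole gene, and ranged from −2.0 (without ZR751shLucif replicate 1) to 6.0. At the authors' FDR of 0.01 the ERα difference was −16.5 peaks. The SP1 difference was then 61.0, with 0 and 0 peaks in ZR751shLucif against 115 and 7 in ZR751shMLL3. The cause was not tested. With 50000 peaks per library the H3K4me1 and SP1 differences were 8.5 and 10.0. After seeing the data, peaks tied in signal at rank 20000 were left out (3.0, −0.5 and 2.0 peaks for H3K4me1, ERα and SP1), or overlapping peaks of a library were joined (4.5, −2.0 and 2.0), and no sign turned. With 2 libraries per line no exact test can pass 0.05, and the low overlap of ERα and SP1 replicates limits what single peaks show.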
